A study of Saccharomyces cerevisiae with 12 samples.

Results

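The flocculins and their regulators were followed in yeast grown under low-shear modeled microgravity (LSMMG). The 10 genes were taken by name: the flocculins FLO1, FLO5, FLO9, FLO10 and FLO11, the activators FLO8, MSS11, TEC1 and PHD1, and the repressor SFL1. The array annotation assigned 1 probe set each to 9 of the 10 genes, out of 9015 probe sets tested, of which 5498 carried a gene name. FLO5 had no probe set under its own name and was not analysed here.

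Diploid Saccharomyces cerevisiae of strain BY4743, a laboratory strain, was grown at a common temperature in the rich medium YPD inside high aspect ratio vessels (HARVs), which are rotating culture chambers filled with medium. SMG 5 and SMG 25 denote the LSMMG cultures, in HARVs set vertically, after 5 and 25 generations, with 3 arrays each. Ctrl denotes 6 arrays of cultures in HARVs set horizontally, divided by the sample titles into 3 arrays of 5 generations (Ctrl 5) and 3 of 25 generations (Ctrl 25). All cultures were wild type for these comparisons and received no other treatment. A legend of the study lists more control arrays at 5 than at 25 generations, unlike the titles, and the growth label gives 5 generations for all samples. Every comparison that divides samples by generation rests on the titles. The study also left out a control array as aberrant, and whether it is among these 6 is not stated. The sources do not state whether replicates came from separate cultures, so that p-values measure only the spread between these arrays. By the methods, part of each culture went into fresh medium about every 5 generations, and the rest was harvested. Samples of 25 generations may thus continue cultures sampled at 5 generations, and the main tests treated them as independent. The deposited value of a probe set is a ratio to its own median over the 12 arrays, and every array has a median of 1. A ratio of 1 is therefore the typical level of that gene here, levels cannot be compared between genes, and a probe set that reads only background cannot be recognised. Because this is bulk RNA from whole cultures, fewer expressing cells and less RNA per cell cannot be told apart.

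Flocculins are proteins anchored in the cell wall that let yeast cells stick to each other or to surfaces. Flo1, Flo5, Flo9 and Flo10 bind sugars on neighboring cell walls, while Flo11 supports adhesion to agar and plastic, filamentous growth and biofilms. FLO11 has one of the largest yeast promoters, on which a MAP kinase pathway ending in Ste12 and Tec1 and a protein kinase A pathway ending in Flo8 and Sfl1 converge. Laboratory strains of the S288C lineage, to which BY4743 belongs, carry a nonsense mutation in FLO8 and neither flocculate nor form filaments. Adhesion itself was not measured in these files.

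TEC1 and FLO11 rose in LSMMG at both times, and SFL1 fell at 25 generations. The other 6 genes measured, among them the flocculins FLO1, FLO9 and FLO10, did not pass the test at either time against the combined controls. None of the differences from Ctrl reached 2-fold, where 14.3% of all probe sets tested passed with at least that change at 5 generations and 13.1% at 25 generations. At 5 generations 2 of 9 genes were higher and 0 lower (limma, adjusted p under 0.05), where 40.7% of all probe sets tested passed, 22.5% higher and 18.2% lower, and 61% of those with a gene name. At 25 generations 2 were higher and 1 was lower, where 39.4% of all probe sets passed, 21.6% higher and 17.8% lower, and 58.4% of those with a gene name. In a test over the 3 groups together (limma's F), 3 of 9 genes passed, where 43.4% of all did. The share of these genes that changed was thus below that of named genes at both times. Their median log2 fold change was 0.103 in SMG 5 and 0.077 in SMG 25, beside -0.001 and -0.005 over all probe sets tested and 0.128 and 0.15 over those with a gene name.

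**Figure D1:**
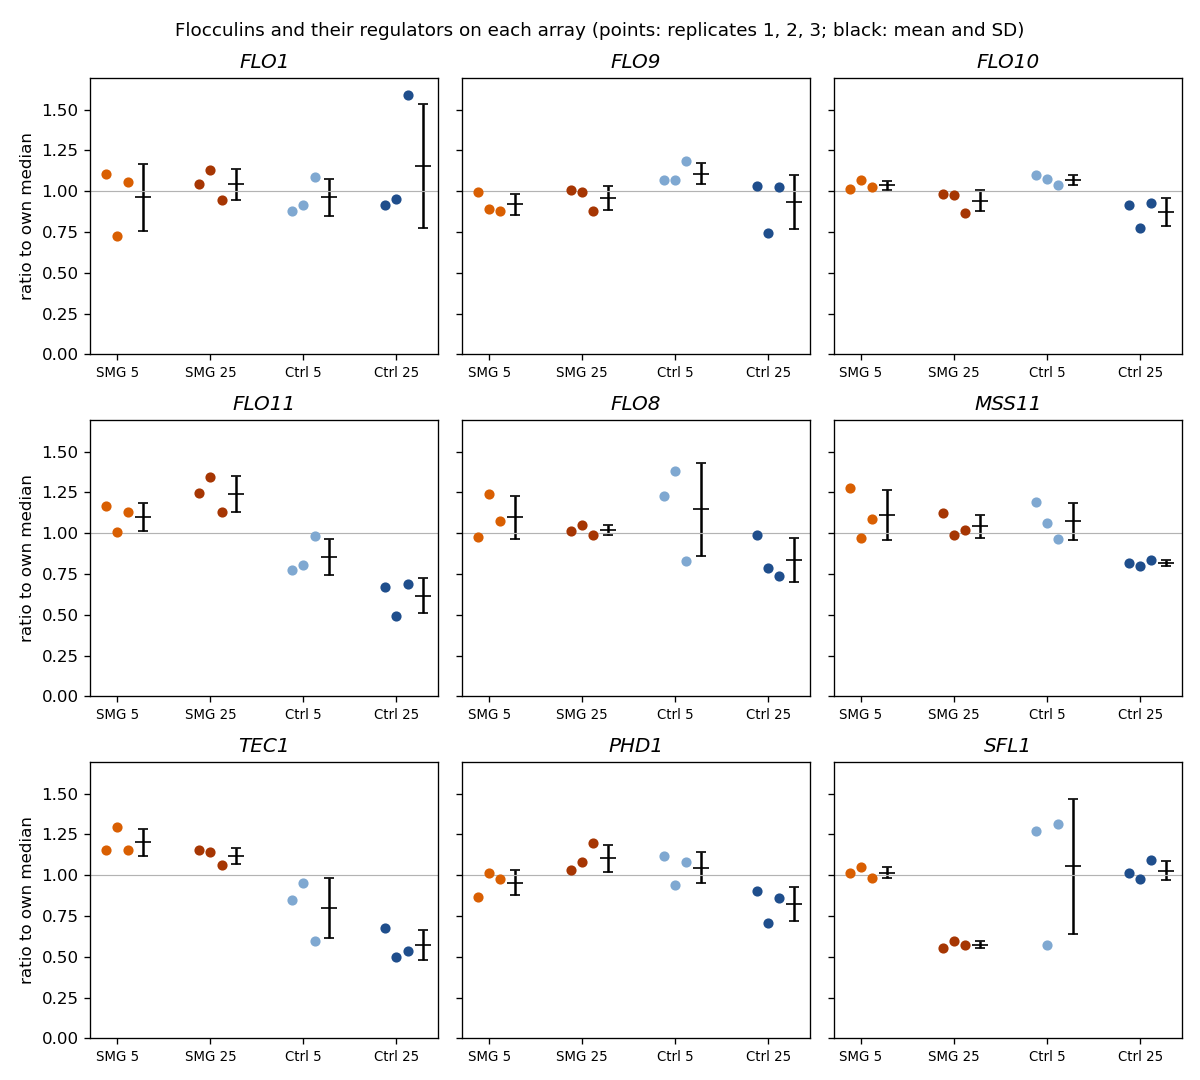
Ratio of each gene to its own median (vertical axis, no unit) on each of the 12 arrays, by group, with points for replicates 1 to 3 and the mean ± SD in black. All 6 LSMMG points of TEC1 and FLO11 lie above all 6 control points, and the SMG 25 points of SFL1 lie between 0.552 and 0.598.

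FLO11, also called MUC1, was the one flocculin of the 4 measured that passed the test against Ctrl. Its ratios were 1.17, 1.005 and 1.13 on the SMG 5 arrays, 1.245, 1.35 and 1.13 on the SMG 25 arrays, and 0.774, 0.805 and 0.984 on the Ctrl 5 arrays. The Ctrl 25 arrays had 0.670, 0.494 and 0.687. No control array reached the lowest LSMMG array, although the lowest SMG 5 array and the highest control array were close. As means the ratios were 1.10 ± 0.0854 (SD, n = 3) in SMG 5, 1.24 ± 0.108 (SD, n = 3) in SMG 25 and 0.736 ± 0.163 (SD, n = 6) in Ctrl. The log2 fold change was 0.61 (SE 0.17, adjusted p = 0.013) in SMG 5 and 0.78 (SE 0.17, adjusted p = 0.0032) in SMG 25, equal to 1.53-fold and 1.72-fold. The call at 5 generations was lost without replicate 1 of SMG 5 (0.56, adjusted p = 0.057) and against the Ctrl 5 arrays alone (0.37, adjusted p = 0.071). At 25 generations, FLO11 was 1.02 higher on the log2 scale than in Ctrl 25 (SE 0.14, adjusted p = 2.1e-04), which is 2.03-fold.

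The flocculins that bind sugars showed no such separation. FLO1, the classical flocculation gene, had ratios of 0.727 to 1.10 in SMG 5, 0.947 to 1.13 in SMG 25 and 0.880 to 1.59 in Ctrl. Its log2 fold changes were -0.13 (95% interval -0.54 to 0.29) and 0.01 (-0.41 to 0.42). The highest control value of FLO1, on replicate 3 of Ctrl 25, stood apart from the other 5, which ended at 1.09. FLO9, a paralog of FLO1, had 0.877 to 0.994 in SMG 5, 0.876 to 1.005 in SMG 25 and 0.744 to 1.18 in Ctrl, with log2 fold changes of -0.14 (-0.42 to 0.14) and -0.08 (-0.36 to 0.20). The suffix of the FLO9 probe set (_s_at) marks probes that match several transcripts, so its signal may include other flocculin genes and cannot be given to FLO9 alone. The probe sets of the other 8 genes carry no such suffix. FLO10, which shares the sugar-binding domain and had the narrowest range of the 9 genes over the arrays, had 1.015 to 1.07 in SMG 5, 0.869 to 0.983 in SMG 25 and 0.772 to 1.10 in Ctrl. Its log2 fold changes were 0.10 (-0.14 to 0.34) and -0.04 (-0.27 to 0.20). For the ratios of these 3 genes the intervals against Ctrl leave out a 1.5-fold rise and a 1.5-fold fall, and the groups overlapped. Because background signal cannot be recognised in ratios, the intervals set no bound on the change of the RNA itself.

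TEC1, the partner of Ste12 at genes of filamentous growth, had ratios of 1.15, 1.30 and 1.155 on the SMG 5 arrays and 1.15, 1.14 and 1.06 on the SMG 25 arrays, against 0.846, 0.952 and 0.599 on the Ctrl 5 arrays and 0.676, 0.499 and 0.538 on the Ctrl 25 arrays. All LSMMG arrays were above all control arrays, and the controls nearest to them were replicates 1 and 2 of Ctrl 5. The means were 1.20 ± 0.0829 (SD, n = 3) in SMG 5, 1.12 ± 0.0490 (SD, n = 3) in SMG 25 and 0.685 ± 0.179 (SD, n = 6) in Ctrl. TEC1 rose by 0.85 (SE 0.18, adjusted p = 0.0027) on the log2 scale in SMG 5 and by 0.75 (SE 0.18, adjusted p = 0.0061) in SMG 25, equal to 1.80-fold and 1.68-fold. With controls of the same generation the changes were 0.61 (SE 0.16, adjusted p = 0.014) and 0.98 (SE 0.16, adjusted p = 6.1e-04). TEC1 and FLO11 were the 2 of 9 genes with all 6 LSMMG arrays above all controls, a separation shown by 15.8% of all probe sets tested.

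SFL1, which encodes a repressor of flocculation genes that is switched off by protein kinase A, showed a difference at 25 generations. Its ratios were 1.01, 1.05 and 0.983 on the SMG 5 arrays and 0.552, 0.598 and 0.574 on the SMG 25 arrays. The Ctrl 5 arrays had 1.27, 0.575 and 1.315, and the Ctrl 25 arrays 1.015, 0.976 and 1.09. Of the 6 control arrays, replicate 2 of Ctrl 5 alone lay in the range of SMG 25, 2 of the 3 SMG 25 arrays were below all controls, and all SMG 25 arrays were below all SMG 5 arrays and all Ctrl 25 arrays. SFL1 and FLO10 were the 2 of 9 genes with all SMG 25 arrays below all SMG 5 arrays, an order shown by 18.6% of all probe sets tested. The order against Ctrl 25 was not counted over all probe sets. SFL1 fell by 0.81 on the log2 scale in SMG 25 against Ctrl (SE 0.21, adjusted p = 0.0084), to 0.570 of the control level, while its change in SMG 5 was 0.01 (SE 0.21, adjusted p = 0.97). Between the LSMMG times it differed by -0.82 (95% interval -1.35 to -0.30), with an unadjusted p of 0.0053 in limma's test but an adjusted p of 0.13. A difference between the times thus did not pass the test, except in the alternatives given in the closing section.

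FLO8 encodes the activator of flocculin genes that is mutated in this lineage, and its RNA can still be measured. Its ratios were 0.977 to 1.24 in SMG 5, 0.990 to 1.05 in SMG 25 and 0.736 to 1.38 in Ctrl, where replicates 1 and 2 of Ctrl 5 were the highest, at 1.23 and 1.38. The log2 fold changes were 0.18 (95% interval -0.23 to 0.59) and 0.08 (-0.33 to 0.49). MSS11, which encodes the partner of Flo8, had 0.971 to 1.28 in SMG 5, 0.990 to 1.12 in SMG 25 and 0.797 to 1.19 in Ctrl, with changes of 0.24 (-0.06 to 0.54) and 0.16 (-0.15 to 0.46). PHD1 encodes an activator of pseudohyphal growth. It had 0.867 to 1.015 in SMG 5, 1.035 to 1.195 in SMG 25 and 0.705 to 1.12 in Ctrl, with changes of 0.04 (-0.25 to 0.33) and 0.25 (-0.04 to 0.54). Within the same generation the picture differed for MSS11 and PHD1. Their ratios on the Ctrl 25 arrays were 0.797 to 0.835 and 0.705 to 0.905, all below the SMG 25 arrays, an order not counted over all probe sets. Both were higher in SMG 25 than in Ctrl 25, MSS11 by 0.35 (SE 0.12, adjusted p = 0.027) and PHD1 by 0.43 (SE 0.12, adjusted p = 0.013). Against controls of the same generation, 1 of 9 genes (TEC1) was higher in SMG 5, where 33.3% of all probe sets tested passed in either direction and 17.4% were higher. In SMG 25 4 were higher (FLO11, TEC1, MSS11 and PHD1) and 1 lower (SFL1), where 45.8% passed, 26% higher and 19.7% lower. Of the 5498 probe sets with a gene name, 1452 were higher and 1335 lower in SMG 5 against Ctrl 5. In SMG 25 against Ctrl 25, 2192 of them were higher and 1417 lower.

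**Figure D2:**
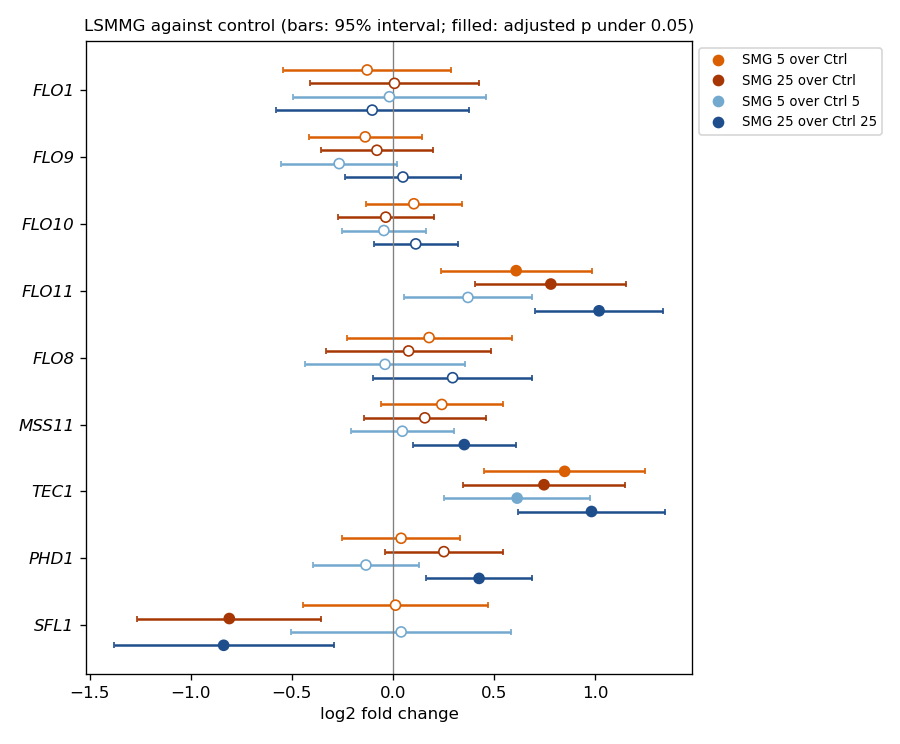
Log2 fold change (horizontal axis) of each gene in SMG 5 and SMG 25 over the combined controls and over the controls of the same generation, with 95% intervals from limma and filled symbols for an adjusted p under 0.05. TEC1 is filled in all 4 comparisons, FLO11 in all but SMG 5 over Ctrl 5, and SFL1 in both comparisons of SMG 25.

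The generation of the culture was examined within LSMMG and within the controls. No gene of the 9 passed for SMG 25 against SMG 5 in limma's test, where 1.7% of all probe sets passed. An unadjusted p under 0.05 was found for 1 of 9 (SFL1), for 12% of all and for 928 of 5498 with a gene name. By the methods' test with the same adjustment SFL1 passed, as 1 of 13 probe sets of 9015. In the controls, 7 of 9 genes had lower values in Ctrl 25 than in Ctrl 5. None passed after adjustment by limma or the methods' test, and 6 of 9 had an unadjusted p under 0.05 in limma, all lower, where 16.5% of all probe sets were lower at that level. Of the 5498 probe sets with a gene name, 1803 had such a p in either direction. The median log2 difference was -0.10 over those with a gene name and -0.348 over the 9 genes. The largest differences among the 6 genes were those of FLO11 at -0.48 (SE 0.14, adjusted p = 0.10), TEC1 at -0.47 (SE 0.16, adjusted p = 0.12) and FLO8 at -0.44 (SE 0.18, adjusted p = 0.17). The others were MSS11, PHD1 and FLO10, at -0.39, -0.35 and -0.30. How many of all probe sets were lower by sign was not counted. Of 16 haploid and mating type genes, described below, 11 had an unadjusted p under 0.05 in limma, with a median of -0.886. Of 4 agglutinins, adhesins of mating cells, 3 had one, with a median of -0.832. Genes of the protein kinase A pathway had a median of 0.072. Of all probe sets, 0.133% passed in this comparison. The interaction of LSMMG with generation passed for none of the 9 genes in limma and for 0.166% of all probe sets. Of all probe sets, 15.1% had an unadjusted p under 0.05, and 1061 of the 5498 with a gene name had one. So did 3 of the 9 genes, FLO11 at 0.65 (95% interval 0.20 to 1.10, adjusted p = 0.20), PHD1 at 0.56 (0.19 to 0.93, adjusted p = 0.18) and SFL1 at -0.88 (-1.65 to -0.11, adjusted p = 0.28). Without replicate 3 of Ctrl 5, 4 of 9 genes passed as lower in Ctrl 25, and the interaction passed for 2. Over all probe sets tested, 31.6% passed between the control generations and 18.6% for the interaction without this array.

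**Figure D3:**
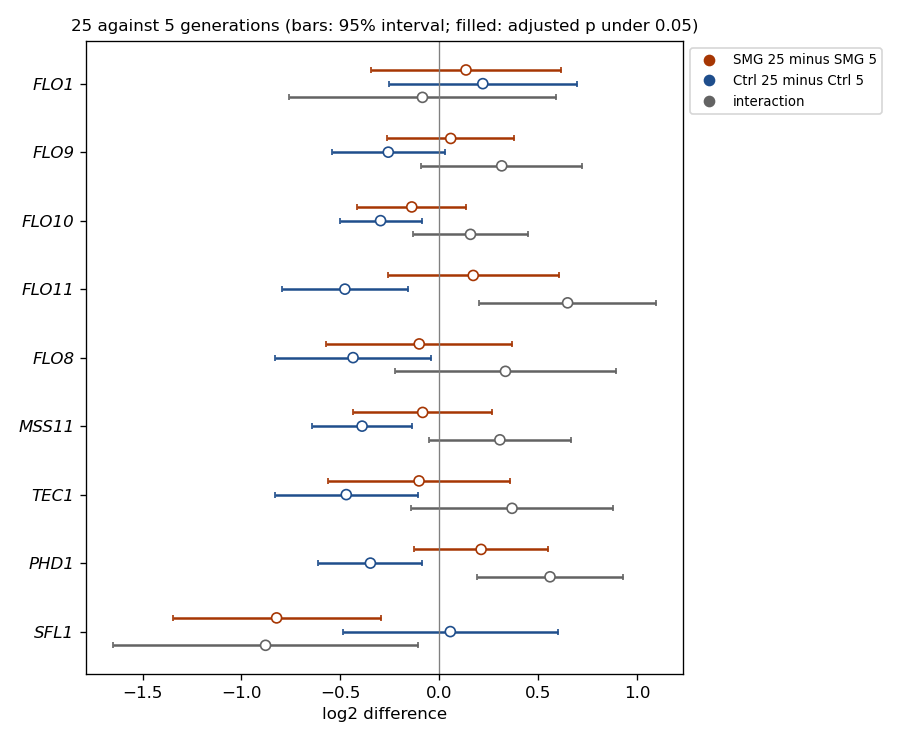
Log2 difference (horizontal axis) of each gene between 25 and 5 generations in LSMMG, in the controls, and the interaction, with 95% intervals from limma. No symbol is filled, since no adjusted p was under 0.05, and 7 of the 9 control differences are negative.

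Replicates 1 and 2 of Ctrl 5 stood apart from the other controls over the whole array, with mean correlations of log2 ratios of 0.532 and 0.316 with the other control arrays, against 0.636 to 0.705 for the other 4. Without both arrays, 4 of 9 genes were higher and 0 lower in SMG 5, and 4 were higher and 1 lower in SMG 25. The share of all probe sets tested that passed was then 52.8% in SMG 5 and 52.7% in SMG 25, also above the 40.7% and 39.4% with all arrays. FLO8 and MSS11 were then added to FLO11 and TEC1 at both times. FLO8 had changes of 0.40 (adjusted p = 0.011) and 0.29 (adjusted p = 0.047), and MSS11 had 0.38 (adjusted p = 0.012) and 0.29 (adjusted p = 0.040). Both genes had their highest control ratios on the omitted arrays, so that the omission could only raise these differences. The controls left were replicate 3 of Ctrl 5 and the 3 Ctrl 25 arrays, mostly of another generation than SMG 5. Against all Ctrl 5 arrays, FLO8 changed by -0.04 (adjusted p = 0.90) and MSS11 by 0.05 (adjusted p = 0.81) in SMG 5. The part of replicates 1 and 2 of Ctrl 5 in the results of FLO8 and MSS11 was not otherwise tested.

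Over the 12 arrays the log2 ratios of FLO11 and TEC1 correlated at 0.818, FLO11 and PHD1 at 0.676, and FLO11 and MSS11 at 0.657, while FLO11 and SFL1 had -0.420. FLO1 and FLO8 had the lowest value among the members, -0.669. All values of this kind rest on the same 12 arrays in the same groups. The genes most like FLO11 among 5497 named probe sets were ARN2 (a siderophore transporter, r = 0.944), UPF3 (a factor of nonsense-mediated decay, 0.938), REF2 (a factor of RNA 3′ end formation, 0.935), SGF73 (a SAGA subunit, 0.935) and LRS4 (a monopolin subunit, 0.925). For TEC1, the member with the largest F over the groups, these were YAT2 (a carnitine acetyltransferase, r = 0.992), GAL80 (a repressor of galactose genes, 0.990), ASP3-1 (an asparaginase with near-identical copies, 0.988), PSY4 (a phosphatase subunit, 0.985) and MDM30 (an F-box protein, 0.985).

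The MAP kinase pathway that ends in Ste12 and Tec1 did not move as one. Of its 13 genes, 4 were higher and 2 lower in SMG 5, and 3 were higher and 3 lower in SMG 25 (limma, adjusted p under 0.05), with median log2 fold changes of 0.10 and 0.12. Over all probe sets with a gene name, 61% passed in SMG 5 and 58.4% in SMG 25. OPY2, a membrane anchor of the pathway, had ratios of 1.35, 1.355 and 1.535 in SMG 5 and 1.33, 1.30 and 1.36 in SMG 25, against 0.425 to 0.711 in Ctrl. It rose by 1.34 and 1.25 (adjusted p = 2.6e-05 and 4.2e-05), and STE50, an adaptor of the kinase Ste11, by 1.09 and 0.95 (adjusted p = 1.5e-05 and 4.2e-05). STE12 itself went the other way from TEC1. Its ratios were 0.751 to 0.839 in SMG 5 and 0.900 to 0.958 in SMG 25, below all control arrays at 1.04 to 1.48. Its changes were -0.61 and -0.42 (adjusted p = 0.0013 and 0.013). Against Ctrl 25 alone the change in SMG 25 was -0.345 and did not pass (adjusted p = 0.051). KSS1, the MAP kinase, changed by -0.65 in SMG 25 (adjusted p = 0.0015), with -0.26 in SMG 5 (adjusted p = 0.13).

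Of 5 listed targets of Ste12 and Tec1, 4 were measured, of which 1 was higher and 2 lower at each time. The shares of probe sets with a gene name that passed were 61% in SMG 5 and 58.4% in SMG 25. PGU1, a secreted pectinase, had ratios of 1.34, 1.04 and 1.16 in SMG 5 and 1.565, 1.55 and 1.495 in SMG 25, against 0.178 to 0.960 in Ctrl. It rose 3.06-fold in SMG 5 (adjusted p = 0.013) and 4.002-fold in SMG 25 (adjusted p = 0.0037), with an SE of 0.45 on the log2 scale at both times. Its highest controls, 0.763 and 0.960, were again replicates 1 and 2 of Ctrl 5. Against Ctrl 5 alone the rise in SMG 5 was 2.09-fold and did not pass (adjusted p = 0.075). CLN1, a G1 cyclin, changed by -1.56 and -1.12 (adjusted p = 8.7e-06 and 8.5e-05), and SVS1, a cell wall protein, by -1.07 and -0.55 (adjusted p = 1.9e-05 and 0.0021). MSB2, the mucin sensor, which also belongs to the pathway itself, did not pass at either time.

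Of 10 measured genes of the protein kinase A pathway, 3 were higher and 4 lower at each time. Among all probe sets with a gene name, 61% passed in SMG 5 and 58.4% in SMG 25. GPA2, the G protein that acts upstream of protein kinase A in filamentous growth, had ratios of 1.33 to 1.42 in SMG 5 and 1.40 to 1.78 in SMG 25, against 0.342 to 0.674 in Ctrl, and rose by 1.61 and 1.86 (adjusted p = 5.8e-05 and 2.0e-05). A pair of catalytic subunits went opposite ways. TPK2, which acts on Flo8 and Sfl1, rose by 1.13 and 1.01 (adjusted p = 4.0e-05 and 8.9e-05), while TPK3 changed by -1.29 and -0.94 (adjusted p = 7.1e-05 and 6.6e-04). PDE2, which breaks down cyclic AMP, changed by -1.11 and -1.27 (adjusted p = 1.2e-05 and 4.8e-06).

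Among 13 other regulators of FLO11 and filamentation, 5 were higher and 4 lower in SMG 5, and 4 were higher and 4 lower in SMG 25, where 61% and 58.4% of all probe sets with a gene name passed. Their median absolute log2 fold change was 0.795 and 0.629, beside 0.542 and 0.507 over all probe sets with a gene name and 0.138 and 0.157 for the flocculins and their regulators. NRG2, a repressor of FLO11 under glucose, had ratios of 1.42, 1.47 and 1.48 in SMG 5 and 1.36, 1.37 and 1.305 in SMG 25, against 0.327 to 0.708 in Ctrl. It rose by 1.68 and 1.56 (adjusted p = 6.7e-05 and 1.1e-04). YAK1, a kinase opposed by protein kinase A, rose by 1.74 and 1.56 (adjusted p = 1.5e-04 and 3.4e-04). ASH1, a daughter-cell factor that also acts in pseudohyphal growth, changed by -0.80 and -1.23 (adjusted p = 1.1e-04 and 5.3e-06), and CYC8, a general corepressor, by -0.57 and -0.54 (adjusted p = 2.6e-04 and 3.8e-04). RME1, a repressor of meiosis that also activates FLO11, had -0.20 in SMG 5 (adjusted p = 0.49) and fell by 0.79 in SMG 25 (adjusted p = 0.0086). Activators and repressors thus stood among both the higher and the lower genes.

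**Figure D4:**
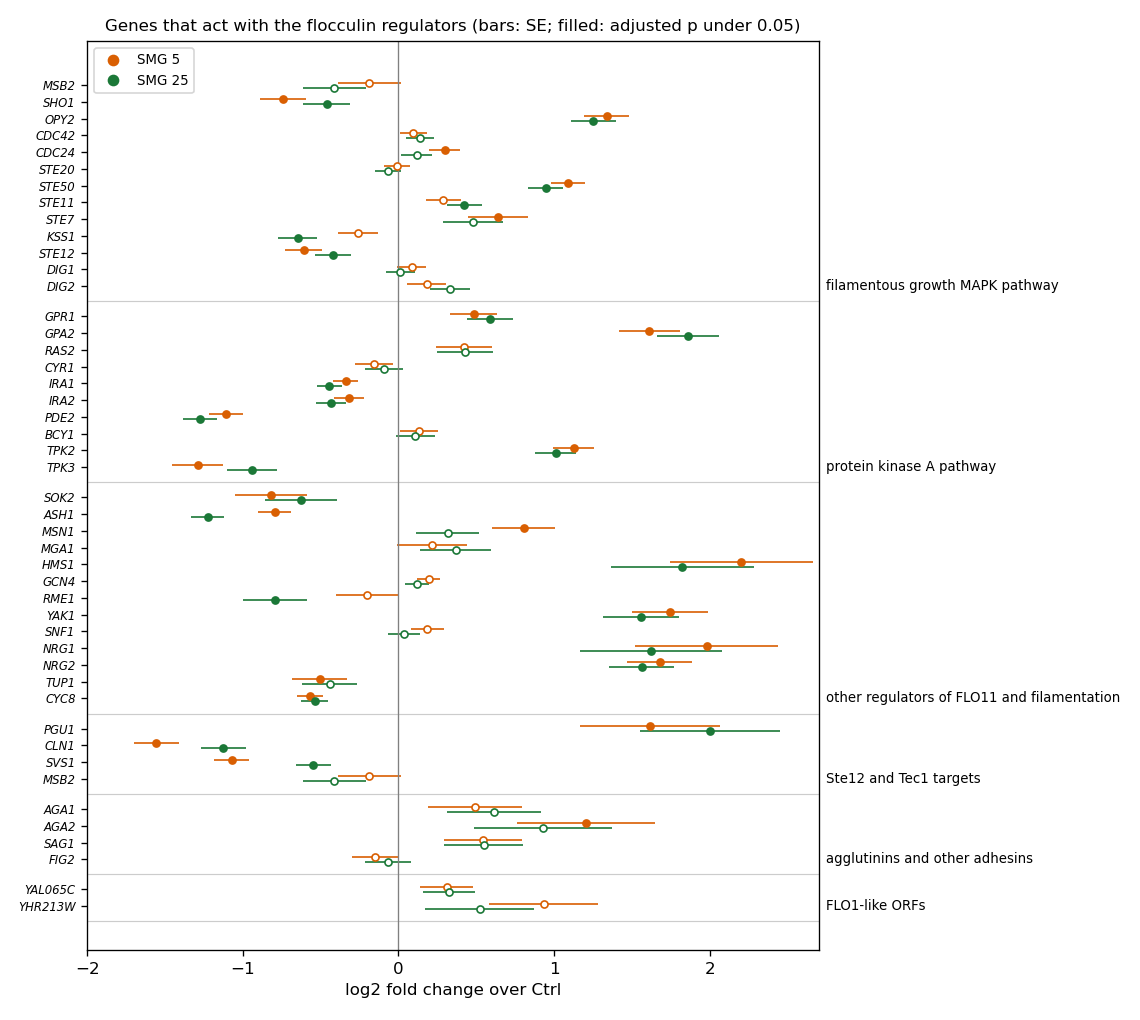
Log2 fold change over Ctrl (horizontal axis) in SMG 5 and SMG 25 for the genes of the related lists, with the SE as bars and filled symbols for an adjusted p under 0.05. Each list holds genes on both sides of 0 apart from the pair of FLO1-like ORFs.

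The agglutinins, adhesins of mating cells that a diploid should keep off, gave 1 call among 4 genes in SMG 5 and 0 in SMG 25 by limma. In SMG 25, 0 of 4 had an unadjusted p under 0.05. Among all probe sets with a gene name, 61% passed in SMG 5 and 58.4% in SMG 25. AGA2, the adhesion subunit of a-agglutinin, had ratios of 1.45, 1.08 and 1.055 in SMG 5 and 0.919 to 1.07 in SMG 25, against 0.286 to 1.205 in Ctrl, with changes of 1.21 (SE 0.44, adjusted p = 0.047) and 0.93 (SE 0.44, adjusted p = 0.12). AGA1, the anchor subunit, had 0.49 and 0.62, SAG1, the alpha-agglutinin, 0.54 and 0.55, and FIG2, an adhesin of mating, -0.15 and -0.07, none past the test. Against controls of the same generation, 0 of 4 passed in SMG 5, where 0 of 4 had an unadjusted p under 0.05, and 3 of 4 were higher in SMG 25, AGA1 by 1.12, AGA2 by 1.54 and SAG1 by 0.87 (adjusted p = 7.3e-04, 0.0061 and 0.0084). Of 5498 probe sets with a gene name, 1452 were higher and 1335 lower in SMG 5 against Ctrl 5. In SMG 25 against Ctrl 25, 2192 of them were higher and 1417 lower. On replicates 1 and 2 of Ctrl 5 the ratios of AGA1, AGA2 and SAG1 were 1.04 to 1.32, against 0.286 to 0.709 on the other control arrays.

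Of 16 haploid and mating type genes, 5 were higher and 0 lower in SMG 5, and 4 were higher and 1 (RME1) lower in SMG 25. Thus 11 of 16 did not pass at each time, where 61% and 58.4% of all probe sets with a gene name passed. Against controls of the same generation, 2 were higher and 0 lower in SMG 5, and 10 were higher and 1 lower in SMG 25. In that comparison of SMG 25, 2192 of 5498 probe sets with a gene name were higher and 1417 lower. Their ratios summed over the list to 20.4 to 26.7 on the SMG 5 arrays, 15.1 to 17.3 on the SMG 25 arrays, 10.9 to 22.5 on the Ctrl 5 arrays and 8.9 to 9.8 on the Ctrl 25 arrays, with the highest controls again replicates 1 and 2 of Ctrl 5. Much of the SMG 5 sums came from STE18, with 4.31 to 5.03, and MFA1, with 2.23 to 2.96 on these arrays. None of the 16 genes is at 0 on any array, the lowest ratio being 0.286, but a ratio does not show whether a gene is expressed. STE18, the gamma subunit of the pheromone G protein, rose by 3.01 and 1.17 (adjusted p = 7.3e-06 and 0.0045). MFA1, an a-factor gene, rose by 2.29 and 1.06 (adjusted p = 3.8e-04 and 0.037). STE5, the scaffold of the pheromone pathway, rose by 1.25 and 0.92 (adjusted p = 0.010 and 0.047). Against Ctrl 5 alone STE5 did not pass in SMG 5 (0.90, adjusted p = 0.062). The part of haploid and mating type genes in the rises of TEC1 and FLO11 was not tested.

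Short open reading frames similar to FLO1 could take part in cross-hybridization, and 2 of 4 listed were measured. YAL065C had ratios of 0.975 to 1.43 in SMG 5, 1.12 to 1.14 in SMG 25 and 0.779 to 1.34 in Ctrl, with changes of 0.31 and 0.33 (adjusted p = 0.17 and 0.16). YHR213W had 2.84, 0.916 and 1.12 in SMG 5, 0.993 to 1.23 in SMG 25 and 0.509 to 1.265 in Ctrl, with changes of 0.93 and 0.52 (adjusted p = 0.051 and 0.27). Its groups overlapped, and replicate 1 of SMG 5 stood far above all other arrays. On that array FLO1 and FLO9 had ratios of 1.10 and 0.994, and cross-hybridization was not tested.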

How the data were processed

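RNA of 12 samples had been hybridized to Affymetrix yeast arrays, 1 array per sample. CEL files went through RMA in the authors' hands, with GeneSpring as the software, and the deposited values are ratios, scaled to a median of 1 per array and to between 0.9935 and 1.0105 per probe set. The settings of that scaling are not given in the sources used here, and the authors' signal filter could not be applied to ratios. Precision is limited by how many arrays there are. Ratios were taken to log2 with no constant. Probe sets annotated to S. pombe (1746), array controls (166) and 1 with several symbols were left out of 10928, which left 9015, 3517 of them without a gene name. Genes were named through the platform annotation and RefSeq R64 identifiers.

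Models with Ctrl, SMG 5 and SMG 25, or with controls divided by generation, were fitted with limma 3.58.1 in R 4.3.3, with Benjamini-Hochberg adjustment over all probe sets tested and a threshold of 0.05. The design had been written for expression values, and ratios took the same test. The comparisons with Ctrl share its arrays. The steps were tested on simulated data. The members and gene lists were chosen with earlier results of these data known. All members were named, with up to 4 genes per list by the largest moderated statistic among those that passed, all agglutinins and FLO1-like ORFs, and the 5 genes most correlated with FLO11 and with the member of largest F. Alternatives were the methods' test, a 2-fold minimum, centring on tested probe sets, quantile normalization, a trended and robust prior, array weights, other sets of probe sets, a floor of 0.1, controls of the same generation, a replicate block and leaving out arrays, and, chosen after seeing the data, the control arrays only with and without a replicate block. Plots came from Python 3.11.15 (matplotlib 3.10.9). No probe or promoter sequences were used here.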

Additional observations from a re-analysis of the deposited data

Results flagged for a closer look

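On 2 probe sets 1 control array stood far from the other 5, measured as its gap to the nearest array over the whole range of the 6, which chance gives in about 1 in 20 groups. For FLO1 this was replicate 3 of Ctrl 25, with a ratio of 1.592 where the next control had 1.09 (gap 0.705 of the range). For FLO9 it was replicate 2 of Ctrl 25, with a ratio of 0.744 where the next had 1.028 (gap 0.647 of the range). Neither gene passed the test against Ctrl with these arrays. Without them the adjusted p was 0.99 in SMG 5 and 0.51 in SMG 25 for FLO1, and 0.054 in SMG 5 and 0.15 in SMG 25 for FLO9 (limma).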

How the results depend on the processing

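The calls of TEC1 and FLO11 in SMG 25 and SMG 5 and of SFL1 in SMG 25 kept their direction in all alternatives run. Over the alternatives other than leaving out 1 array, the log2 fold change ran from 0.614 to 1.064 for TEC1 in SMG 5, 0.581 to 0.982 for TEC1 in SMG 25, 0.371 to 0.678 for FLO11 in SMG 5, 0.761 to 1.019 for FLO11 in SMG 25 and -1.169 to -0.81 for SFL1 in SMG 25. A 2-fold minimum took the number of genes called to 0 in SMG 5, in SMG 25 and over the 3 groups together. For SMG 5, array weights gave 4 genes (55.4% of all probe sets) and controls of the same generation gave 1 (33.3%). Omission of replicates 1 and 2 of Ctrl 5 gave 4 (52.8%), and leaving out 1 array gave 1 to 2. For SMG 25, controls of the same generation and omission of those arrays gave 5 each, where 45.8% and 52.7% of all probe sets passed. For SMG 25 against SMG 5, the methods' test, quantile normalization, array weights and omission of those arrays each called 1 gene, SFL1. Of all probe sets, 0.144%, 8.73%, 18.7% and 6.72% passed in these 4 alternatives, in the order given. Leaving out 1 array gave 0 to 1 gene, with the call without replicate 2 of Ctrl 5, where 2.43% of all passed. For Ctrl 25 against Ctrl 5, array weights called 6 (37.3% of all probe sets) and leaving out 1 array 0 to 4. For the interaction, array weights called 4 (29.5% of all) and leaving out 1 array 0 to 2, and the methods' test gives no value. Over the 3 groups, omission of replicates 1 and 2 of Ctrl 5 gave 5 (56.5% of all). Leaving out 1 array gave 2 to 3, where SFL1 was lost without replicate 1 or replicate 3 of SMG 25. The estimate of array weights stopped before convergence. The causes were not tested.

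Signs turned for genes that were not called in either setting. With controls of the same generation the log2 fold changes in SMG 5 were -0.045 for FLO10, -0.039 for FLO8 and -0.134 for PHD1, and in SMG 25 -0.103 for FLO1, 0.049 for FLO9 and 0.113 for FLO10. With array weights they were -0.09 for SFL1 in SMG 5, and -0.008 for FLO1 and 0.041 for FLO10 in SMG 25. Without replicates 1 and 2 of Ctrl 5 they were -0.105 for SFL1 in SMG 5, and -0.094 for FLO1 and 0.049 for FLO10 in SMG 25. Quantile normalization gave -0.041 for PHD1 in SMG 5, and centring on the tested probe sets -0.002 for FLO1 in SMG 25. Leaving out 1 array gave ranges in SMG 5 of -0.239 to 0.062 for FLO1, -0.038 to 0.107 for PHD1 and -0.149 to 0.089 for SFL1, and in SMG 25 of -0.055 to 0.132 for FLO1, -0.1 to 0.021 for FLO10 and -0.001 to 0.181 for FLO8.

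Of 18 pairs of arrays with the same replicate number, 5 had correlated deviations over 0.1 (-0.277 to 0.489), and 4 of 12 arrays correlated best with their own number, so the number does not pair the arrays over all groups. The 3 pairs of Ctrl 25 and Ctrl 5 arrays did correlate (0.101, 0.311 and 0.489), although replicate 1 of Ctrl 5 correlated better with replicate 2 of Ctrl 25 (0.398), and 7 of 9 genes were lower in Ctrl 25 in all 3 pairs. A fit of the control arrays only with the replicate block was added after seeing the data. It called 0 genes (adjusted p = 0.27 to 0.92) and 3 of 9015 probe sets. In this fit 5 of 9 genes had an unadjusted p under 0.05. This count and that of genes lower in all 3 pairs were not taken over all probe sets. They do not show whether these genes differ from others. Control arrays only, without the block, gave 0 genes and 0 probe sets. With the replicate block over all arrays the counts of genes called were 2 in SMG 5, 3 in SMG 25 and 0 in SMG 25 against SMG 5, in Ctrl 25 against Ctrl 5 and in the interaction, and 3 over the 3 groups, the same as without it. Signal over background is unknown for ratios, and the 3 arrays per LSMMG group limit what can be called.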

Other observations

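The genes next to the 3 members that changed were looked up in the R64 gene order, as the nearest gene on each side with a probe set under its name, chosen after the values of the members were seen. Beside TEC1, UBC4, a ubiquitin-conjugating enzyme, had log2 fold changes of 0.10 and 0.13 in SMG 5 and SMG 25 (adjusted p = 0.26 and 0.16), and MIS1, a mitochondrial folate enzyme, changed by -1.23 and -0.88 (adjusted p = 1.2e-04 and 0.0012). Beside FLO11, MRS1, a mitochondrial splicing factor, had -0.15 and -0.13 (adjusted p = 0.13 and 0.19), and YIR018C-A had 0.45 and 0.29 (adjusted p = 0.19 and 0.41). Beside SFL1, RUP1 rose by 0.37 in SMG 5 (adjusted p = 0.0033) and had 0.20 in SMG 25 (adjusted p = 0.065), and ARP8, a chromatin remodeling subunit, rose by 0.31 in SMG 5 (adjusted p = 0.0077) and had 0.04 in SMG 25 (adjusted p = 0.70).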
